A study of Mus musculus with 8 samples.

Results

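The autophagy genes described here are 10 genes of autophagosome initiation, conjugation and cargo capture, namely Ulk1, Becn1, Wipi1, Atg5, Atg12, Map1lc3a, Map1lc3b, Gabarap, Gabarapl1 and Sqstm1. They were taken by symbol, and all 10 were among the 16538 genes of the DN3 expression table. Autophagy encloses cytoplasm, protein aggregates or pieces of the endoplasmic reticulum (ER) in a double membrane and delivers them to the lysosome. It is a second route of protein clearance beside ER-associated degradation (ERAD), in which SEL1L and its partner ligase HRD1 pass misfolded ER proteins to the proteasome. In the T lineage, autophagy genes are best known for the upkeep of mitochondria and ER and for the survival of peripheral T cells.

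RNA was sequenced from sorted DN3 thymocytes, the CD4 and CD8 double-negative stage at which β-selection takes place, of C57BL/6 mice aged 6 weeks. The 4 control libraries were from Sel1l-f/f mice, whose Sel1l alleles are floxed and which carry no Cre, and the 4 Sel1l CKO libraries were from Sel1l-f/f hCD2cre+ mice, in which a human CD2 transgene drives iCre from the earliest thymic progenitors onwards. Both groups thus carry the floxed alleles, and an effect of Cre itself and one of the deletion cannot be told apart. The study's methods define replicates as independent biological ones unless a legend says otherwise. The labels do not tie a library to a mouse. In read counts, Sel1l CKO replicates 3 and 4 differed least of all pairs within a genotype. Their chi-square per degree of freedom was 10, against 24.6 to 88.4 for the other pairs.

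Values are RPKM, in which the reads of each gene are divided by the gene's length and by the library's total over genes. The length used is not stated. For 76.7% of genes the values give whole reads on the length of the whole gene with its introns. RPKM is therefore used to compare 1 gene between libraries and not 1 gene with another. From 32900253 to 50401359 reads per library lay on genes. All 7 genes of DN3 identity were detected in every library, with Il2ra, a surface marker of this stage, from 16.9 to 23.1 RPKM. Cd3e was lower in all Sel1l CKO libraries than in any control, at 28.5 to 34.2 against 36.3 to 42.0 RPKM. So was Notch3, at 7.61 to 17.2 against 17.5 to 20.7 RPKM. Of the 10177 genes tested below, 6.32% were lower in this way. Il2ra, Ptcra, Rag1, Rag2 and Notch1 overlapped between genotypes. Of the coreceptor genes, Cd4 was at most 0.238 RPKM, Cd8a at most 1.81 and Cd8b1 at most 1.54. The mean level of Sel1l, counted over the whole gene and so also outside the floxed part, was 1.67 ± 0.114 RPKM in the controls against 1.09 ± 0.222 RPKM after deletion (SD, n = 4 each, log2 fold change -0.64, limma adjusted p = 0.0429). Over 22 alternatives to the processing its adjusted p ran from 0.0043 to 0.123 and passed the threshold in 12, and it was 0.0834 to 0.123 without any 1 of the controls or of Sel1l CKO replicates 1 and 2. Sel1l CKO replicates 3 and 4 stood apart from the other 6 libraries on the second principal component (20.1% of the variance), at -27.24 and -24.13 against -1.73 to 18.50. On the first component (38.3% of the variance) they lay between the genotypes, at 5.57 and 4.88 against 30.83 and 35.58 for Sel1l CKO replicates 1 and 2 and -31.82 to -11.74 for the controls. Sel1l itself was at 1.32 and 1.23 RPKM in them against 0.917 and 0.876 RPKM in Sel1l CKO replicates 1 and 2. Without these libraries the log2 fold change of Sel1l was -0.89 (limma adjusted p = 0.0043), and the autophagy genes whose call or sign changes without them are given both ways. The controls were ordered alike on the second component. Control replicates 3 and 4 lay at -1.73 and 4.07, below control replicates 1 and 2 at 12.36 and 15.96.

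None of the autophagy genes differed between genotypes past the threshold. Each gene was tested with limma on log2(RPKM + 0.01), two-sided, over the 10177 genes that averaged at least 0.1 RPKM, with Benjamini-Hochberg adjustment over all of them. Of the 10 genes, 9 were tested and 0 had an adjusted p under 0.05, where 3.85% of all tested genes did. At an unadjusted p under 0.05 there were 2, Map1lc3a and Atg5, where the share of all tested genes was 19.7%. With limma voom on recovered reads, an alternative in which all 10 genes could be tested, 0 passed, where 4.39% of the 11254 genes in that fit did, and 3 had an unadjusted p under 0.05, where the share was 20.9%. Log2 fold changes ran from -0.62 to 0.26 with a median of -0.05, 4 of 9 were above 0, and 47.6% of all tested genes were above 0 with a median of -0.01. The remaining gene, Wipi1, lay below the minimum. A miss of the threshold does not show equal levels, so the 95% interval of each difference is given below.

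**Figure D1:**
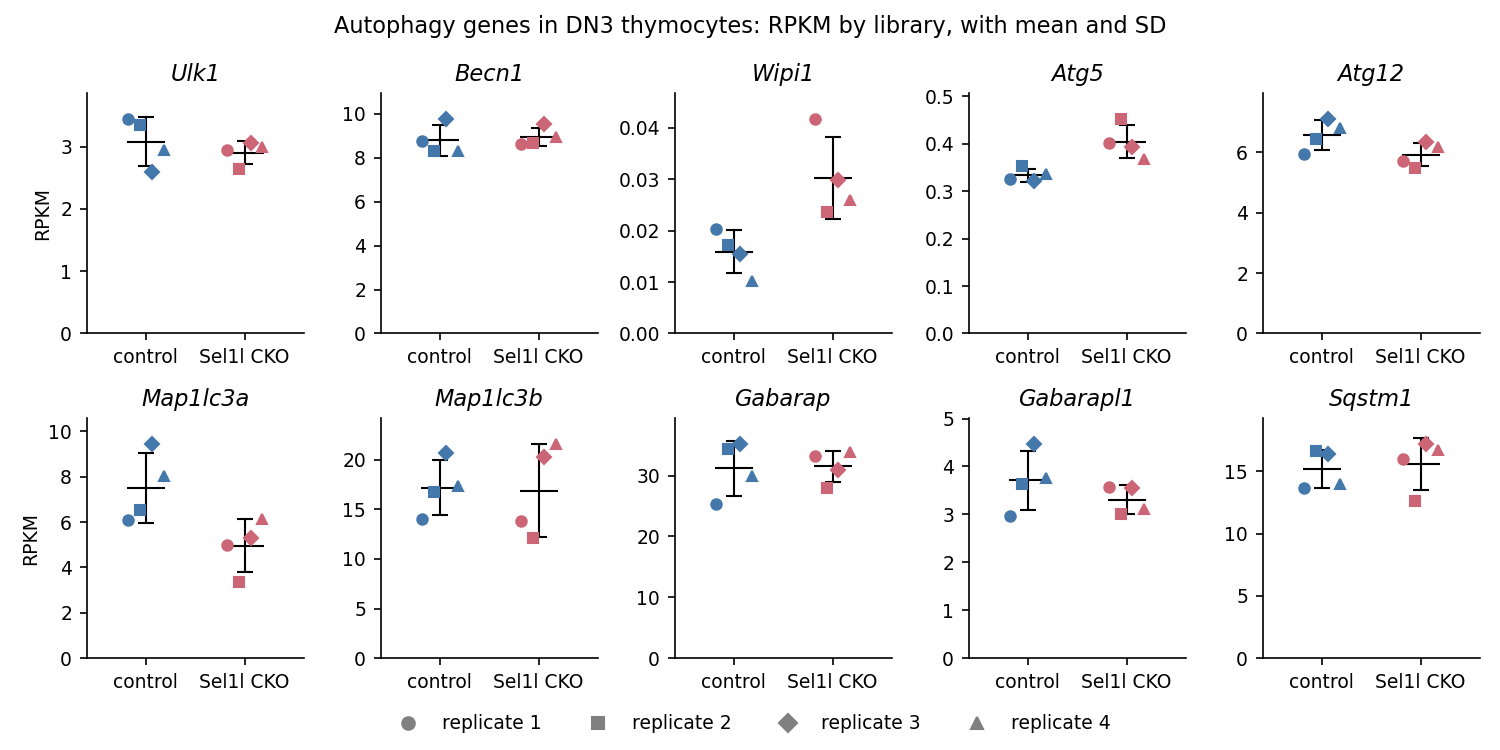
RPKM (vertical axes, starting at 0) of the 10 autophagy genes in the 4 control (blue) and 4 Sel1l CKO (red) libraries, 1 panel a gene, with 1 symbol shape per replicate number, the mean as a long bar and the SD as error bars. The groups overlap in 8 panels, and in those of Atg5 and Wipi1 the Sel1l CKO libraries all lie above the controls.

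Ulk1 encodes the initiating kinase. ULK1 phosphorylates the first autophagy complexes under the control of mTORC1 and AMPK. Ulk1 (ENSMUSG00000029512.11, chromosome 5 of GRCm38, 110784488 to 110810097, minus strand) gave 3.44, 3.35, 2.60 and 2.94 RPKM in the controls, in the order of replicates 1 to 4 as in all lists of values here, and 2.94, 2.64, 3.05 and 2.99 RPKM in Sel1l CKO. All 4 Sel1l CKO libraries lay inside the control range, and the log2 fold change was -0.08 (95% interval -0.31 to 0.15, limma adjusted p = 0.692).

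Becn1 encodes Beclin 1, a subunit of the class III PI3 kinase complex that marks the nascent membrane with PI3P. Becn1 (ENSMUSG00000035086.13, chromosome 11, 101285952 to 101302286, minus strand) lay at 8.78, 8.30, 9.76 and 8.32 RPKM in control and at 8.64, 8.69, 9.55 and 8.94 RPKM in Sel1l CKO. Its interval was the narrowest of the 9 tested autophagy genes, with a log2 fold change of 0.03 (-0.13 to 0.19, limma adjusted p = 0.851), which is from 0.911 to 1.14 times control. Replicate 3 was the highest library of both genotypes. The gene overlaps Cntd1 on the other strand, and the sources used here do not say whether the counting used strand, so reads of such a pair cannot be told apart.

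WIPI1 binds PI3P on the growing membrane. Wipi1 (ENSMUSG00000041895.15, chromosome 11, 109573331 to 109611967, minus strand) was the least expressed of the 10 genes, at 0.0204, 0.0173, 0.0154 and 0.0103 RPKM in control and 0.0417, 0.0236, 0.0299 and 0.0260 RPKM in Sel1l CKO, which is 32, 32, 21 and 15 reads against 61, 46, 38 and 33 reads. All Sel1l CKO libraries exceeded all controls, and the Sel1l CKO mean was 191% of control (exact permutation test over 70 assignments, two-sided, p = 0.0286, the smallest that 4 libraries against 4 allow). In the fit with no minimum its log2 fold change was 0.63 (95% interval 0.21 to 1.06, limma adjusted p = 0.155). With voom on the reads it was 0.90 (95% interval 0.08 to 1.72, limma voom adjusted p = 0.197). Neither fit placed the difference past the threshold. Of the 5679 genes below the minimum with any value above 0, 1.6% had higher values in all Sel1l CKO libraries than in any control and 2.47% lower.

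The conjugation genes had fold changes of opposite sign. ATG12 is joined to ATG5, and with ATG16L1 the pair attaches LC3 and GABARAP proteins to the lipid of the membrane. Atg5 (ENSMUSG00000038160.7, chromosome 10, 44268358 to 44364291, plus strand) was at 0.326, 0.353, 0.321 and 0.337 RPKM in control and at 0.401, 0.452, 0.394 and 0.368 RPKM in Sel1l CKO, from 1085 to 2184 reads per library. The groups did not overlap, with Sel1l CKO replicate 2 the highest. The mean was 121% of control (exact permutation test, two-sided, p = 0.0286, which any full separation of these libraries gives). Such a separation, with Sel1l CKO higher, was found in 7.40% of all tested genes and, with Sel1l CKO lower, in 6.32%, and of the 9 tested autophagy genes 1 showed the former and 0 the latter. The log2 fold change was 0.26 (95% interval 0.04 to 0.49, limma adjusted p = 0.192).

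The promoters of Atg5 and Wipi1 are shown because these were the genes whose genotypes did not overlap. A RefSeq promoter window (GRCm38.p6, 250 bases before the start and 50 after) was used for 7 of the 10 genes. None was found for Map1lc3a or Becn1. Atg12 was left out because windows on its chromosome, 18, were not used for the autophagy genes. The stretches below run 5′ to 3′ on the strand of the gene, lie before the RefSeq start and hold no exon of GENCODE M21, and have CG dinucleotides in capitals. That of Wipi1 is inside the GENCODE span of the gene, which begins further upstream.
Atg5, chr10:44268089-44268338, plus strand, 250 bases: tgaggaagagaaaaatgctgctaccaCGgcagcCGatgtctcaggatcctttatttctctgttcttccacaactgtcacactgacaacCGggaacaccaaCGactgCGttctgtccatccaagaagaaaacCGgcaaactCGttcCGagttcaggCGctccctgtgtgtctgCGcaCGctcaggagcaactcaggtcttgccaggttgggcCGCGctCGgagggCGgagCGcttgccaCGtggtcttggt
Wipi1, chr11:109611433-109611639, minus strand, 207 bases: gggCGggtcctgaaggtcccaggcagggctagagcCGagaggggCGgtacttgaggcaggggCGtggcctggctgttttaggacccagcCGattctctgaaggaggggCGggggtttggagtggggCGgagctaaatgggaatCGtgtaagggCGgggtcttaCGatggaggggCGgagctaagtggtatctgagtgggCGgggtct

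Atg12 (ENSMUSG00000032905.5, chromosome 18, 46730144 to 46741580, minus strand) lay at 5.95, 6.43, 7.10 and 6.82 RPKM in control and at 5.72, 5.49, 6.33 and 6.18 RPKM in Sel1l CKO. The lower pair in both genotypes was replicates 1 and 2, and the ranges overlapped. Its log2 fold change was -0.15 (95% interval -0.32 to 0.03, limma adjusted p = 0.335).

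Among the 10 genes the ATG8 family held the lowest fold change. Its products are the ubiquitin-like proteins that are attached to the membrane and bind cargo receptors. Map1lc3a, which encodes LC3A (ENSMUSG00000027602.9, chromosome 2, 155276297 to 155278073, plus strand), was at 6.08, 6.53, 9.45 and 8.04 RPKM in control and at 4.99, 3.35, 5.32 and 6.12 RPKM in Sel1l CKO, from 300 to 591 reads per library. The ranges met at a single point, where Sel1l CKO replicate 4 lay just above control replicate 1. The mean in Sel1l CKO was 65.7% of control, with a log2 fold change of -0.62 (95% interval -1.07 to -0.16, limma adjusted p = 0.143), and the exact permutation test gave p = 0.0571, two-sided.

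Whether Map1lc3a passed depended on how the libraries were treated. Without Sel1l CKO replicates 3 and 4 the log2 fold change was -0.86 (limma adjusted p = 0.0472), and with replicates 3 and 4 against 1 and 2 as a further term of the model it was -0.62 (limma adjusted p = 0.0284). No label names these replicates a batch. Over all 22 alternatives the adjusted p ran from 0.0284 to 0.304. On the length of the main transcript, Map1lc3a made up 6.82, 5.76, 7.35 and 7.38% of the summed level of Map1lc3a, Map1lc3b, Gabarap and Gabarapl1 in control and 4.82, 3.84, 4.70 and 5.09% in Sel1l CKO. These shares did not overlap, while the RPKM of Map1lc3a did. Since the shares were set up after the levels were seen they carry no test. How often such shares separate among other genes was not examined. Gabarapl2, also of the ATG8 family, was not part of the sum.

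The summed RPKM of the myeloid and of the thymic epithelial markers was lower in all Sel1l CKO libraries than in any control, mainly through Lyz2 and Epcam. Since RPKM here rests on gene lengths with introns, these sums weigh genes unequally. They do not tell how many such cells were present. The summed RPKM of Lyz2, Itgam, Itgax, Csf1r and H2-Aa was from 2.22 to 2.76 in control and from 0.702 to 1.71 in Sel1l CKO, with Lyz2 as the main part, and Itgam, Itgax and Csf1r, which define these cells, were under 0.1 in every library. Like Lyz2, Itgax was lower in all Sel1l CKO libraries than in any control, at 0.00125 to 0.0101 against 0.0178 to 0.0239 RPKM. Itgam, Csf1r and H2-Aa overlapped between genotypes. The 5 listed markers of thymic epithelium, of which Epcam carried the signal and Foxn1 and Krt5 were under 0.1 in every library, summed to 3.10 to 4.88 in control and 1.95 to 2.27 in Sel1l CKO. The others did not share the fall of Epcam. Foxn1, Krt8 and Psmb11 overlapped between genotypes. Krt5 was 0 in every control and 0.0157 to 0.0209 RPKM in Sel1l CKO replicates 1, 3 and 4. The 4 listed B cell genes summed to at most 0.226 in any library, and 3 listed erythroid genes to at most 0.723 in control and 1.88 in Sel1l CKO. The 7 genes of DN3 identity summed to 201 to 226 in control and 165 to 204 in Sel1l CKO, and the 6 of earlier or later thymocytes to 1.70 to 3.44 and 1.95 to 3.93. The part of such cells in the level of Map1lc3a or of the other autophagy genes was not tested, and in these bulk samples fewer cells of a type and less RNA per cell cannot be told apart.

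LC3B is the ATG8 protein most used to count autophagosomes. Map1lc3b (ENSMUSG00000031812.16, chromosome 8, 121590361 to 121598760, plus strand) was at 14.0, 16.8, 20.7 and 17.4 RPKM in control and at 13.8, 12.1, 20.3 and 21.6 RPKM in Sel1l CKO. The Sel1l CKO libraries formed 2 low and 2 high values, replicates 1 and 2 against 3 and 4, on both sides of the control mean of 17.2 ± 2.77 RPKM (SD, n = 4). The log2 fold change of -0.05 had a wide interval (-0.51 to 0.40, limma adjusted p = 0.904), and it was -0.40 without Sel1l CKO replicates 3 and 4 (limma adjusted p = 0.115). The gene overlaps Zcchc14 on the other strand and the annotated gene Gm20388 on its own strand, so some of its reads may be shared.

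GABARAP proteins act at the later closure of the autophagosome and its fusion with the lysosome. Gabarap (ENSMUSG00000018567.14, chromosome 11, 69991143 to 69994951, plus strand) was at 25.3, 34.3, 35.2 and 30.0 RPKM in control and at 33.2, 28.0, 31.0 and 33.8 RPKM in Sel1l CKO, with every Sel1l CKO value inside the control range. Its log2 fold change was 0.02 (95% interval -0.23 to 0.28, limma adjusted p = 0.933). Gabarapl1 (ENSMUSG00000030161.8, chromosome 6, 129533160 to 129542346, plus strand) was at 2.97, 3.63, 4.47 and 3.76 RPKM in control and at 3.58, 3.0, 3.56 and 3.11 RPKM in Sel1l CKO. Here too the Sel1l CKO values lay inside the control range (log2 fold change -0.15, 95% interval -0.44 to 0.13, limma adjusted p = 0.518).

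Sqstm1 encodes p62, the receptor that ties ubiquitinated protein aggregates to LC3 and is itself degraded with them. Sqstm1 (ENSMUSG00000015837.15, chromosome 11, 50199366 to 50210827, minus strand) lay at 13.7, 16.6, 16.4 and 14.0 RPKM in control and at 16.0, 12.6, 17.2 and 16.7 RPKM in Sel1l CKO, or 15.2 ± 1.51 against 15.6 ± 2.07 RPKM (SD, n = 4 each). The lowest and the highest of the 8 libraries were both Sel1l CKO, replicates 2 and 3. Its log2 fold change was 0.04 (95% interval -0.22 to 0.29, limma adjusted p = 0.881), so the interval reached from 0.858 to 1.23 times control. From 6057 to 9091 reads per library lay on this gene, which overlaps Mrnip on the other strand. These values are transcript levels, and the amount of p62 or LC3 protein and the flow of material through autophagy were not measured.

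**Figure D2:**
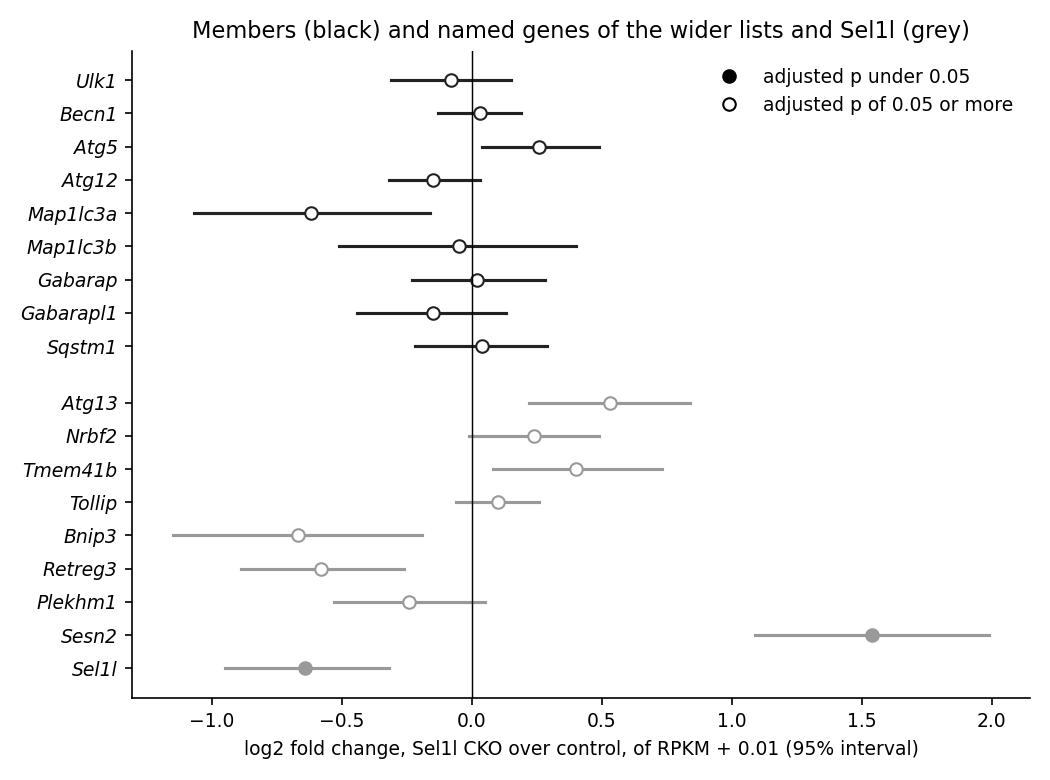
Log2 fold change of RPKM + 0.01, Sel1l CKO over control (horizontal axis), with the 95% interval from limma as a line, for the 9 tested autophagy genes (black) and for the named genes of the wider autophagy lists and Sel1l (grey). Filled points have an adjusted p under 0.05, which holds for Sesn2 and Sel1l among the genes shown.

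The genes differed in how much they varied between libraries of 1 genotype. The SD of log2(RPKM + 0.01) within genotypes was 0.334 for Map1lc3a and 0.333 for Map1lc3b, above that of 85.2% and 85.1% of tested genes, and the median over all tested genes was 0.160. Becn1 (0.0900), Atg5 (0.0940) and Atg12 (0.103) were among the steadier genes, with 13.9%, 15.6% and 20.9% of tested genes below them. Sqstm1, Gabarap, Gabarapl1 and Ulk1 were between 0.147 and 0.194.

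Levels of different genes can be compared only per transcript length, so RPKM was rescaled to the principal protein-coding transcript of GENCODE M21. The starting length was the gene with introns or, for Atg12 and Gabarapl1, a length solved from the values. Rescaling raised the values from 1.6-fold for Map1lc3a to 40.8-fold for Atg5, whose gene is mostly intron. On this scale Gabarap (88.0 ± 12.7) and Sqstm1 (85.4 ± 8.51) led in control, with overlapping ranges (SD, n = 4 each here and below). Map1lc3b followed at 57.1 ± 9.17 and Becn1 at 32.9 ± 2.56, each separated from its neighbours. Gabarapl1 (18.6 ± 3.09), Ulk1 (15.1 ± 1.91), Atg5 (13.6 ± 0.567), Atg12 (12.6 ± 0.960) and Map1lc3a (12 ± 2.45) formed a run in which each overlapped the next. Wipi1 was far lower, at 0.299 ± 0.0798.

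Map1lc3a thus had the lowest mean of the 4 ATG8 genes compared, though its control range met that of Gabarapl1, and it was at 7.90 ± 1.86 on this scale in Sel1l CKO. The other ATG8 genes in Sel1l CKO were at 88.8 ± 7.38 (Gabarap), 56.2 ± 15.5 (Map1lc3b) and 16.6 ± 1.52 (Gabarapl1). On the summed exons of all transcripts in place of the principal one, Becn1 (20.3 ± 1.58) came before Map1lc3b (19.2 ± 3.09) and Atg5 (13.6 ± 0.567) before Ulk1 (12.2 ± 1.53), both with overlapping ranges, and Atg12 (7.81 ± 0.593) came after Map1lc3a (11.3 ± 2.31).

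**Figure D3:**
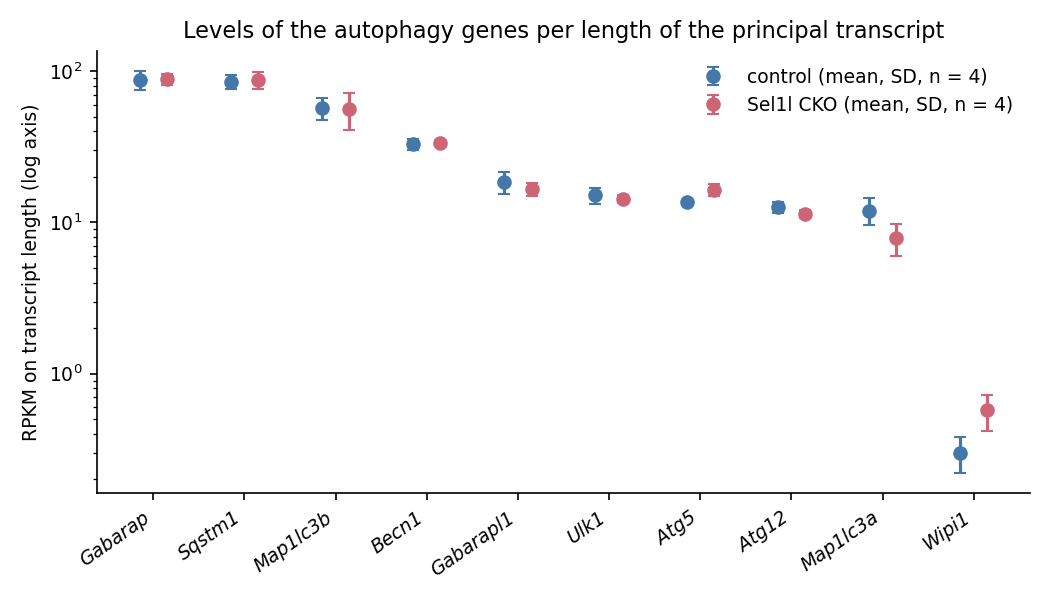
RPKM rescaled to the length of the principal transcript (log axis) for the 10 autophagy genes in control (blue) and Sel1l CKO (red), points for the mean and bars for the SD over 4 libraries, ordered by the control mean. Gabarap and Sqstm1 lead at 88.0 and 85.4 in control, and Wipi1 is lowest at 0.299.

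To see whether other parts of the pathway behaved differently, 10 lists of autophagy genes were read from the same fit, of which 95 genes, the 10 above included, were in the table and 84 were tested. A single gene passed in the upward direction, Sesn2, and 0 passed downward, which is 1.19% where 3.85% of all tested genes passed. At an unadjusted p under 0.05 there were 10, or 11.9% beside 19.7% of all tested genes. The median log2 fold change was -0.0020 and 41 were above 0, or 48.8% beside 47.6%. SESN2 (Sestrin 2) is a stress-induced inhibitor of mTORC1, the kinase that holds ULK1 in check, and is a known target of ATF4. Sesn2 was at 0.587, 0.494, 0.531 and 0.389 RPKM in control and at 1.05, 2.01, 1.41 and 1.53 RPKM in Sel1l CKO. The lowest Sel1l CKO library was above the highest control, with a log2 fold change of 1.54 (95% interval 1.09 to 1.99, limma adjusted p = 0.00283), and it passed under all 22 alternatives. The other 15 tested upstream regulators, among them Mtor, Tsc2, Prkaa1, Tfe3 and Foxo3, did not pass, with a list median of 0.01.

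In the other 9 lists no gene passed, and the gene with the lowest adjusted p in each is given. In the initiation complex (0 of 5) it was Atg13, which encodes the regulatory subunit of the ULK1 complex and was at 1.40 ± 0.0742 against 2.05 ± 0.416 RPKM (SD, n = 4 each, limma adjusted p = 0.0733). Its levels in Sel1l CKO were 1.65, 1.74, 2.34 and 2.47 RPKM, highest in replicates 3 and 4, and it passed in 4 of the 22 alternatives, without Sel1l CKO replicate 1 among them (limma adjusted p = 0.0413). Without Sel1l CKO replicates 3 and 4 its log2 fold change was 0.28 in place of 0.53 (limma adjusted p = 0.0651). In the class III PI3 kinase complex (0 of 8) it was Nrbf2 (log2 fold change 0.24, limma adjusted p = 0.268). In membrane supply and lipid transfer (0 of 9) it was Tmem41b, an ER lipid scramblase (log2 fold change 0.40, limma adjusted p = 0.166), which passed without Sel1l CKO replicates 3 and 4 (0.58, limma adjusted p = 0.0359). Among conjugation genes and ATG4 proteases (0 of 8) and in the ATG8 family (0 of 5) it was Atg5 and Map1lc3a.

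Of the receptors, the one nearest the threshold was that of ER-phagy, the capture of ER fragments. Retreg3, a reticulon-like ER membrane protein that binds LC3, was at 4.72, 4.99, 4.64 and 4.05 RPKM in control and at 3.30, 2.30, 3.26 and 3.62 RPKM in Sel1l CKO. No Sel1l CKO library reached the lowest control, with a log2 fold change of -0.58 (95% interval -0.89 to -0.26, limma adjusted p = 0.0602), and it passed in 7 of the 22 alternatives, among them without Sel1l CKO replicate 2 (-0.44, limma adjusted p = 0.0393) and without Sel1l CKO replicates 3 and 4 (-0.73, limma adjusted p = 0.0283). The other 6 tested ER-phagy receptors did not pass and the list median was -0.10. Bnip3 was the lowest by adjusted p of the mitophagy receptors (0 of 7), at 0.158 ± 0.0345 against 0.0944 ± 0.0151 RPKM (SD, n = 4 each, limma adjusted p = 0.129). Tollip (0.10, limma adjusted p = 0.471) was that of the cargo receptors (0 of 5) and Plekhm1 (-0.24, limma adjusted p = 0.338) that of the fusion genes (0 of 14), both as log2 fold changes.

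Over the 84 tested genes of the lists, 3 had higher values in all Sel1l CKO libraries than in any control, namely Atg13, Atg5 and Sesn2, or 3.57% beside 7.40% of all tested genes. In 4 all were lower, or 4.76% beside 6.32%, namely Retreg3, Bnip3, Rb1cc1 (log2 fold change -0.46, limma adjusted p = 0.123), the scaffold of the ULK1 complex, and Stk11 (-0.17, limma adjusted p = 0.174), the kinase upstream of AMPK. These last 2 were named after their values were seen, and Rb1cc1 passed without Sel1l CKO replicates 3 and 4 (-0.65, limma adjusted p = 0.0291).

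**Figure D4:**
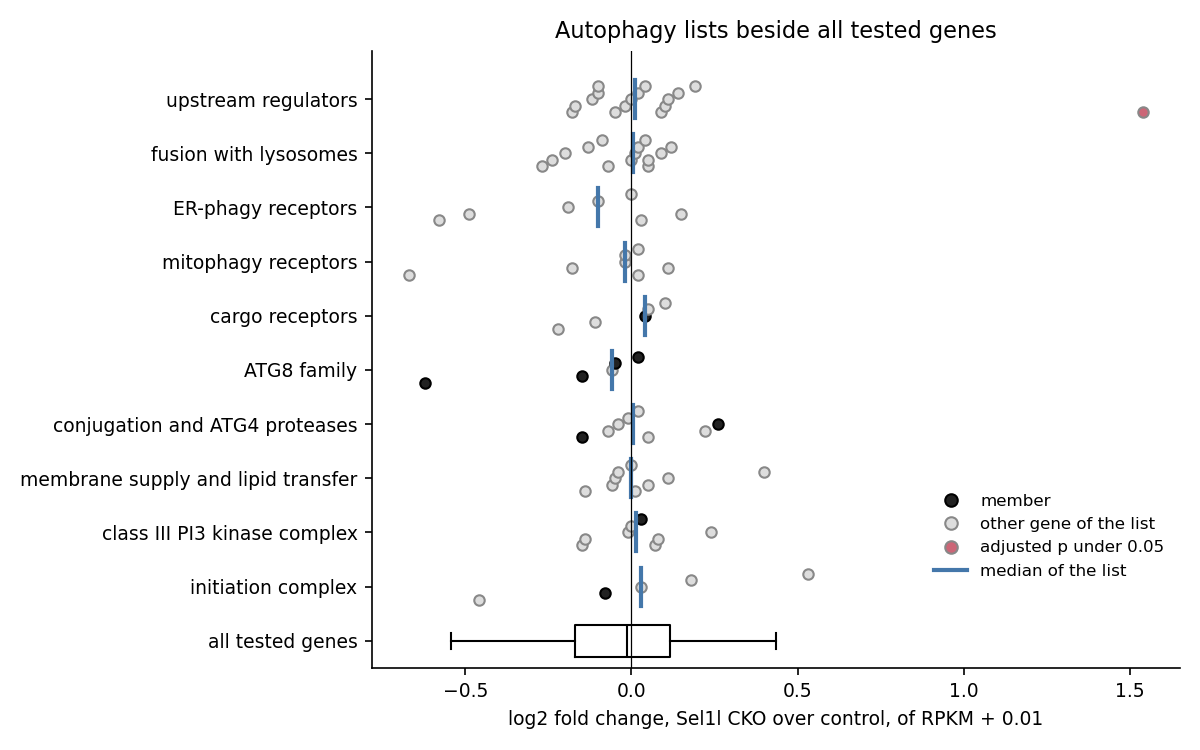
Log2 fold change of RPKM + 0.01, Sel1l CKO over control (horizontal axis), for the 84 tested genes of 10 autophagy lists, with the listed members in black, genes with an adjusted p under 0.05 in red and a blue line at each list's median. The box at the bottom gives the median, the quartiles and the 5th to 95th percentiles of all 10177 tested genes, and Sesn2, at 1.54, is the gene of the lists that lies far outside it.

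CG dinucleotides were frequent in most of the 7 promoter windows, those of Atg5 and Wipi1 shown above included. Map1lc3b had 34, Ulk1 26, Wipi1 25, Atg5 24 and Sqstm1 20 in 300 bases, where the median over the 32851 RefSeq windows was 7.0. Gabarapl1 had 12 and Gabarap 7, the latter near the median. The windows were searched on both strands for the core of the CLEAR element bound by TFEB (TCACGTGA), the CARE element bound by ATF4 and CHOP (TGATGNAA), the antioxidant response element bound by NRF2 (TGACNNNGC) and the UPRE bound by XBP1 and ATF6 (TGACGTGG). TGACGTGG followed by C also matches the NRF2 element, so these last can count the same bases. They were present in 0.974%, 3.97%, 12.4% and 0.676% of all windows. Among the 7 genes, 1 match was found, to the NRF2 element in Map1lc3b (TGACTCGGC, from base 5 after the start). A match is a description of letters in this window, and sites outside it were not searched.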

How the data were processed

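The authors sorted DN3 thymocytes into TRIzol, made stranded mRNA libraries for paired-end sequencing, used STAR 2.5.2b for alignment and counted reads on protein-coding genes with HTSeq 2.7 (submitters' processing notes, GRCm38). They deposited RPKM values, 1 column per library. The tool and the gene length behind RPKM are not given in the sources used here, but on the spans of GENCODE M21 the values of 12003 genes (76.7%) are whole reads in every library (within 0.05), against 4.32% on exon length. For a further 2763 genes, Atg12 and Gabarapl1 among them, the length was solved from the values. DESeq2, which the study used, was not run.

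The deposited RPKM were tested with limma 3.58.1 in R 4.3.3 (trended prior variance, a genotype term alone, adjusted p under 0.05) and in Python 3.11.15. Simulated data were used to test the scripts. The minimum of 0.1 and the pseudocount of 0.01 were set low because introns in the length place long genes below 1. Alternatives were pseudocounts of 0.1 and 1, no minimum, a minimum of 1, that minimum with a pseudocount of 0.1, rescaled sums, median-of-ratios, quantile normalization, no trend, array weights, a replicate block, each library left out, Sel1l CKO replicates 3 and 4 left out, replicates 3 and 4 as a term and, chosen after seeing the data, limma voom on recovered reads for genes averaging 10 reads or more. The members and lists were chosen with earlier results of these data known. Beyond the members, their overlapping genes, Sel1l and cell markers, genes were named if past the threshold or lowest by adjusted p in their list. Rb1cc1, Stk11 and Tfeb were named after their values were seen, and Mtor, Tsc2, Prkaa1, Tfe3, Foxo3, Retreg1, Atg4a and Deptor only as examples of list members. No member passed, so the rule naming genes with a pattern like a passing member named none.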

Additional observations from a re-analysis of the deposited data

How the results depend on the processing

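Of the 10 autophagy genes, 0 passed in 20 of 22 alternatives and in all 8 that left out 1 library (0 to 0). It was 1, Map1lc3a, without Sel1l CKO replicates 3 and 4 and with replicates 3 and 4 against 1 and 2 as a term. Of the wider lists, 1 gene passed, and 2 with a minimum of 1 RPKM with either pseudocount and with voom on recovered reads, 3 with quantile normalization, array weights or the replicate term, 5 without Sel1l CKO replicates 3 and 4, and 1 to 2 with single libraries omitted, where 2 passed without Sel1l CKO replicate 1 (Atg13) or 2 (Retreg3). Of all tested genes 392 passed, with 665 under array weights, 1550 without Sel1l CKO replicates 3 and 4, where 44.5% of calls were upward against 76.8%, and 233 to 344 with 1 library left out, with 233, 242 and 249 without control replicates 1, 3 and 4. With voom on recovered reads 494 of 11254 passed. The share upward was 88.4% without control replicate 3 and 63.3% with the replicate term.

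Small log2 fold changes changed sign, each with an adjusted p over 0.05. Under quantile normalization they were -0.02 (Sqstm1), -0.05 (Gabarap) and -0.02 (Becn1), and without Sel1l CKO replicates 3 and 4 they were -0.09, -0.02 and -0.02. Under array weights Map1lc3b was at 0.21. With 1 library left out, Sqstm1 ran from -0.01 to 0.14, Map1lc3b from -0.18 to 0.10, Gabarap from -0.07 to 0.08 and Becn1 from -0.0027 to 0.08. The values of opposite sign were -0.01 and -0.01 for Sqstm1 without control replicate 1 and Sel1l CKO replicate 3, 0.04, 0.03 and 0.10 for Map1lc3b without control replicate 3 and Sel1l CKO replicates 1 and 2, -0.07, -0.01 and -0.01 for Gabarap without control replicate 1 and Sel1l CKO replicates 1 and 4, and -0.0027 for Becn1 without Sel1l CKO replicate 3. Map1lc3a, Gabarapl1, Atg5, Atg12 and Ulk1 kept their sign in every alternative that could test them, but Ulk1 ran from -0.16 (without control replicate 3) to -0.02, -0.04 and -0.03 (without control replicates 1 and 2 and Sel1l CKO replicate 2) and Gabarapl1 from -0.25 (without control replicate 1) to -0.06 (without control replicate 3). Without Sel1l CKO replicates 3 and 4 Ulk1 was at -0.14 and Atg12 at -0.23. The cause of these shifts was not tested.

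Libraries with the same number were not treated as pairs in the main fit. The correlations of their deviations were positive but weak, at 0.0778, 0.0982, 0.220 and 0.0563 for numbers 1 to 4. Across genotypes, libraries of replicates 1 and 2 correlated best with replicates 1 or 2, and those of 3 and 4 with 3 or 4. The best match was not always the same number, and these values cannot show whether libraries were paired. With the replicate block, 278 of all tested genes, 1 gene of the lists and 0 of the autophagy genes passed, and Sel1l missed the threshold (limma adjusted p = 0.0900). Wipi1 rested on 15 to 61 reads per library.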

Other observations

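Among the 11 genes of the autophagy lists left out of the test for low RPKM, Tfeb and Wipi1 had higher values in all Sel1l CKO libraries than in any control, and 0 the reverse. Over all 5679 genes below that minimum with any value above 0 the shares were 1.6% and 2.47%. Tfeb encodes a transcription factor that activates lysosomal and autophagy genes. It was at 0.00622, 0.00869, 0.00513 and 0.0148 RPKM in control, against 0.0181, 0.0279, 0.0318 and 0.0159 RPKM after deletion, which is 14, 23, 10 and 31 reads against 38, 78, 58 and 29 reads. In the limma fit with no minimum the log2 fold change was 0.84 (95% interval 0.33 to 1.34, adjusted p = 0.120). With limma voom on the reads the log2 fold change was 1.48 (95% interval 0.51 to 2.44, adjusted p = 0.0853). It was picked from the values, and with so few reads its level is uncertain. The others below the minimum, such as Retreg1, Atg4a and Deptor, overlapped between genotypes.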
